A study of Homo sapiens with 16 samples.

Results

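The regions described here are those that start within the first 500 kb of the short arms of 17 human chromosomes, 1 to 12 and 16 to 20, in build hg19. They were chosen by position alone, as all rows with a start below 500000 in 7 deposited tables of chromatin immunoprecipitation sequencing (ChIP-seq) regions. There are 6201 of them among 1255311 regions in all: 713 for CTCF, 844 for RAD21, 697 for SMC1, 1047 for H3K27Ac, 707 for Pol2Ser5, 1268 for Pol2Ser2 and 925 for TotalRNAPol2. They were set beside the 32786 regions that start at 2 to 4 Mb on the same chromosomes. The rule uses position only, and distance is counted from the first base of the assembled chromosome, which need not be the telomere.

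The study compared HCT116, a human colorectal carcinoma cell line, with DKO, a line derived from it in which both DNMT1 and DNMT3B, the genes of the maintenance and of a de novo DNA methyltransferase, have been disrupted. Both lines were grown in the same medium, and the labels name no other treatment. DKO is a derived line, so clonal differences from HCT116 and the loss of the enzymes cannot be told apart. Each line gave 1 library for each of 7 targets, 14 libraries in all. Pol2Ser5 and Pol2Ser2 are RNA polymerase II phosphorylated at serine 5 or serine 2 of its C-terminal repeat, and H3K27Ac is histone H3 acetylated at lysine 27. TotalRNAPol2 was taken as total RNA polymerase II from the sample title, although the antibody label of those 2 libraries names Pol2Ser5.

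Chromosome ends carry telomeric repeats next to subtelomeric DNA, part of which is duplicated between chromosomes. CpG-rich repeats close to the telomere act as promoters of TERRA, a noncoding RNA transcribed towards the chromosome end, and they are known to be methylated in most somatic cells. CTCF, a zinc finger protein of insulators and domain boundaries, and cohesin, the ring complex that holds RAD21 and SMC1, are known to bind near these promoters. H3K27Ac marks active promoters and enhancers, serine 5 phosphorylation is typical of polymerase near the start of genes, and serine 2 phosphorylation of polymerase in gene bodies. Where subtelomeric copies are nearly identical, a short read can match more than 1 chromosome end. How such reads were placed is not given in the sources used here, and the arm assignment of the outermost regions is uncertain for that reason.

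M is the authors' log2 ratio of the normalized read density in DKO over that in HCT116. A region with M of 1 or more was counted as higher in DKO and one with M of -1 or less as higher in HCT116, a 2-fold difference. The median region held 27 to 78 reads in DKO and 22 to 97 reads in HCT116, depending on the target. Since each line had a single library per target, the spread between replicates is not known and no test was made. Intervals of M are exact 95% intervals from the reads, and intervals of medians are 95% order-statistic intervals. They describe these libraries alone. Reads were counted in a window of 1 or 2 kb per region, whatever its length. Regions are not replicates, and neighbouring regions can share a counting window.

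Over whole arm ends, CTCF and cohesin differed between the lines about as they did further inside the arms. The median M of CTCF was 0.52 (0.46 to 0.59) near the arm ends and 0.63 (0.60 to 0.66) at 2 to 4 Mb, a difference of -0.11 ± 0.07. Here the error is the half-width that combines the intervals of both medians. The median of RAD21 was 0.07 against 0.15, a difference of -0.08 ± 0.07, and that of SMC1 was 0.21 against 0.30, a difference of -0.09 ± 0.08. The differences were thus small for all 3 proteins, and the arms did not agree in direction. CTCF was lower near the end than inside on 11 of 17 chromosomes and higher on 6. RAD21 was lower on 9 and higher on 8, and SMC1 lower on 11 and higher on 6.

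The acetylation mark and the polymerase forms differed little in their medians as well. H3K27Ac had a median M of -0.14 near the ends and -0.06 inside, a difference of -0.07 ± 0.06 before rounding of the medians. Pol2Ser5 had 0.36 against 0.29, a difference of 0.07 ± 0.12, which is smaller than its error. The other polymerase tables showed differences just above their error. Pol2Ser2 had 0.57 against 0.48, a difference of 0.09 ± 0.08, and TotalRNAPol2 had 0.80 against 0.70, a difference of 0.10 ± 0.08. These small positive differences changed sign without chromosome 16, which had the most polymerase regions: they were then -0.06 for Pol2Ser5, -0.02 for Pol2Ser2 and -0.01 for TotalRNAPol2. Without chromosome 20, whose arm end was low in DKO, they were 0.25, 0.21 and 0.24.

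**Figure D1:**
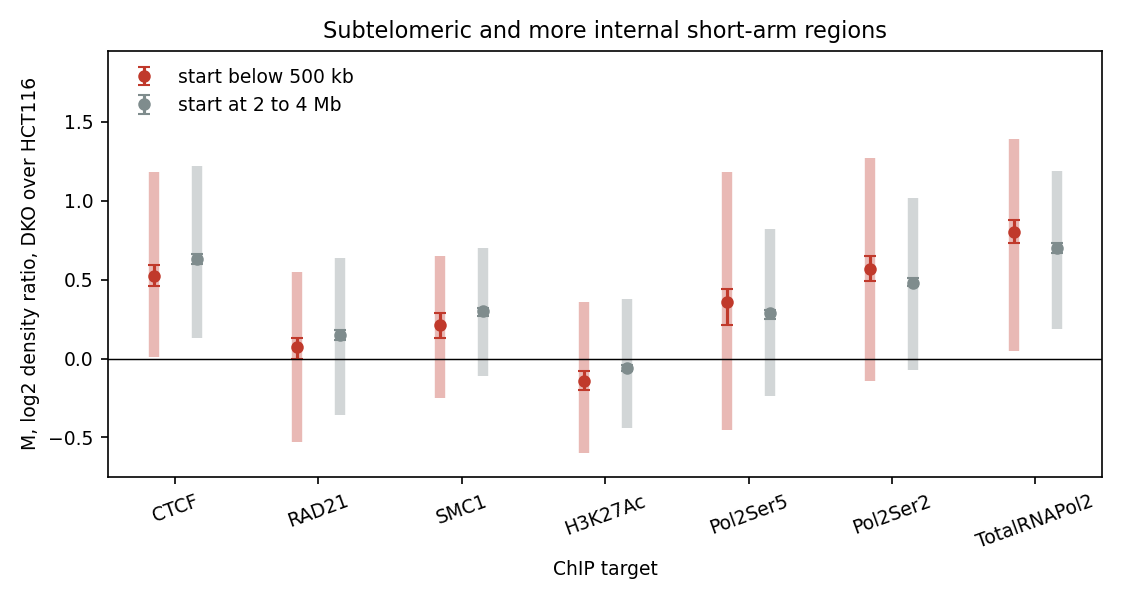
Median M (log2 density ratio, DKO over HCT116) of each ChIP target for regions that start below 500 kb (red) and at 2 to 4 Mb of the same chromosomes (grey). Points are medians with 95% order-statistic intervals and pale bars span the middle quartiles; the medians of each pair differ by at most 0.11 in size, while the quartiles of the polymerase tables lie further apart near the ends.

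The share of polymerase regions past 2-fold was larger at the arm ends than inside, in both directions. Pol2Ser5 had 212 regions (30.0%) higher in DKO and 87 (12.3%) higher in HCT116, against 19.1% and 8.86% at 2 to 4 Mb. Over the whole Pol2Ser5 table the shares were 14.9% and 21.0%. Pol2Ser2 had 417 (32.9%) and 88 (6.94%), against 25.7% and 4.34% inside and 18.6% and 10.9% over the whole table. TotalRNAPol2 had 389 regions (42.1%) higher in DKO and 55 (5.95%) higher in HCT116, against 34.2% and 2.52% inside and 20.7% and 10.2% over the whole table. Thus the polymerase regions of the arm ends lay above both backgrounds for gain in DKO. Median reads were lower at the arm ends than inside, and M spreads further both ways where reads are fewer. The DKO and HCT116 medians were 49 and 22 against 61 and 27 inside for Pol2Ser5. They were 27 and 30 against 36 and 37 for Pol2Ser2, and 78 and 40 against 96 and 47 for TotalRNAPol2. How far this widened the shares was not tested.

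CTCF had 218 regions (30.6%) higher in DKO and 27 (3.79%) higher in HCT116, against 33.9% and 2.45% inside and 20.1% and 6.33% of the whole table. The arm ends and the inner regions thus shared the excess of CTCF gain over the whole table. RAD21 had 82 regions (9.72%) higher in DKO and 91 (10.8%) higher in HCT116, against 12.1% and 6.28% inside and 13.7% and 8.70% over the table. SMC1 had 77 (11.0%) and 18 (2.58%), against 11.9% and 2.03% inside and 9.36% and 4.67% over the table. H3K27Ac had 110 (10.5%) and 101 (9.65%), against 9.16% and 5.15% inside and 11.0% and 10.4% over the table. The shares of SMC1 and H3K27Ac regions higher in DKO were close to their background.

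The balance of gain and loss depended on how M is centred. Centred on the median of all regions of each table, CTCF had 164 regions higher in DKO and 46 higher in HCT116. On that scale RAD21 had 52 and 121, SMC1 51 and 35, and TotalRNAPol2 281 and 83. This lowers M by 0.26 in the CTCF table, 0.14 in that of RAD21, 0.16 in that of SMC1, 0.17 in that of Pol2Ser2 and 0.27 in that of TotalRNAPol2. With 1 constant factor per table in place of the authors' level-dependent line, RAD21 had 120 and 77, Pol2Ser2 had 307 and 147, and TotalRNAPol2 had 262 and 86. With that factor the whole-table median went from 0.17 to -0.06 for Pol2Ser2 and from 0.27 to 0.07 for TotalRNAPol2. H3K27Ac had 118 and 91 after recentring and 100 and 116 with the constant factor. RAD21 and H3K27Ac therefore had no stable direction at the arm ends, while CTCF, SMC1 and the 3 polymerase tables kept more regions higher in DKO than higher in HCT116 under each centring.

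By the authors' own calls, the share called in DKO only was also closer to the inner regions than to the whole table for CTCF, SMC1 and the polymerase. Of the CTCF regions 51.1% were called in DKO only, against 56.4% at 2 to 4 Mb and 41.3% of the whole table. For RAD21 this share was 38.2% against 40.8% and 37.5%, for SMC1 50.2% against 54.2% and 43.2%, and for H3K27Ac 25.0% against 25.8% and 28.7%. Among polymerase regions it was 56.4% against 57.8% and 46.0% for Pol2Ser5, 61.1% against 58.1% and 49.8% for Pol2Ser2, and 70.3% against 72.0% and 55.4% for TotalRNAPol2. Regions called in HCT116 only were more common near the ends than at 2 to 4 Mb in every table, but less common than in the whole table for CTCF, SMC1 and the polymerase. Their share was 10.8% against 8.93% inside and 15.1% of the whole table for CTCF, 28.8% against 25.3% and 24.3% for RAD21, 21.2% against 17.9% and 22.7% for SMC1, and 40.0% against 37.8% and 39.5% for H3K27Ac. It was 22.9% against 19.3% and 33.9% for Pol2Ser5, 21.8% against 19.5% and 31.9% for Pol2Ser2, and 13.1% against 8.86% and 24.4% for TotalRNAPol2.

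The highest M of Pol2Ser5 lay at the outermost regions, those that start below 20 kb, which were found on 1p, 2p, 5p, 9p, 17p and 18p. At 1p, 2p, 5p and 18p, M lay between 2.72 and 6.04 for Pol2Ser5, between 1.44 and 3.86 for TotalRNAPol2 and between 0.59 and 3.83 for H3K27Ac. Over the same ends and 9p, M lay between -1.92 and 1.08 for CTCF, between -1.45 and 0.62 for RAD21 and between -0.36 and 0.76 for SMC1. All 7 Pol2Ser5 regions below 20 kb were past 2-fold in DKO, with a median M of 4.47. All 14 TotalRNAPol2 regions were too, with a median of 1.78, although only 9 of the 14 were under a constant centring. H3K27Ac was past 2-fold in 8 of 17 regions, and in 8 of 9 without chromosome 17. Over all arm ends the shares past 2-fold in DKO were 30.0% for Pol2Ser5, 42.1% for TotalRNAPol2 and 10.5% for H3K27Ac. Of the other targets, 5 of 17 CTCF regions were higher in DKO by 2-fold (29.4%, close to the 30.6% of all arm ends). Only 1 of the 17 was when M was recentred on all regions. For RAD21, 0 of 13 regions were higher in DKO by 2-fold, and for SMC1 1 of 16. At so few regions these counts are close to what the shares over all arm ends, 9.72% and 11.0%, would give.

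The end of 5p showed the widest gap. At chr5:11924-12547, Pol2Ser5 gave 438 DKO reads and 3 HCT116 reads, an M of 6.04 (4.89 to 8.73), and at chr5:12877-13717 it had 453 and 6 reads, an M of 5.26 (4.35 to 6.93). Both were called in DKO only. H3K27Ac had 266 and 25 reads at chr5:11910-12484 (M of 3.60, 3.06 to 4.31) and 286 and 30 reads at chr5:12901-13723 (3.44, 2.94 to 4.08). TotalRNAPol2 had 347 and 18 reads (3.86, 3.25 to 4.70) and 330 and 24 reads (3.34, 2.80 to 4.06) at the matching regions. All 3 marks were thus low in HCT116 and high in DKO over the same kilobases, although the counting windows of the neighbouring regions overlap. Pol2Ser2 had few reads there: DKO had 20 and HCT116 0 at chr5:12084-12290, where the exact interval of M starts at 3.86, and 32 and 4 reads at chr5:12914-13289 (3.78, 2.57 to 6.02). Further in, at chr5:16130-16326, Pol2Ser2 gave 0 DKO reads and 26 HCT116 reads, where the exact interval of M ends at -1.22.

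CTCF at the end of 5p did not follow the polymerase. At chr5:11943-12479 it gave 29 DKO reads and 89 HCT116 reads, an M of -1.72 (-2.41 to -1.13). At chr5:12910-13729, the stronger of the pair, it had 443 and 308 reads, an M of 0.64 (0.43 to 0.86). RAD21 had 22 reads in each line at the first site (-0.52, -1.44 to 0.40) and 79 and 55 at the second (0.19, -0.31 to 0.72). The intervals of SMC1 also included 0 at both sites, with M of -0.36 and 0.44.

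The end of 2p had a similar arrangement for Pol2Ser5, H3K27Ac and TotalRNAPol2, but cohesin differed from 5p. Pol2Ser5 gave 221 DKO reads and 5 HCT116 reads at chr2:10507-10958 (4.47, 3.49 to 6.37) and 234 and 7 at chr2:11253-11857 (4.13, 3.25 to 5.65). H3K27Ac had 187 and 15 reads at chr2:10506-10913 (3.83, 3.16 to 4.78) and 213 and 25 at chr2:11262-11698 (3.29, 2.74 to 4.00). TotalRNAPol2 had 214 and 25 reads at chr2:10526-10919 (2.75, 2.20 to 3.46). CTCF was lower in DKO at the first of these places, with 11 and 32 reads at chr2:10554-10878 (-1.72, -2.93 to -0.77), and RAD21 was too, with 12 and 23 reads at chr2:10598-10876 (-1.45, -2.65 to -0.44). SMC1 was not, with 19 and 16 reads at chr2:10668-10832 (-0.05, -1.08 to 1.02). At the second place, chr2:11237-12764, CTCF was strongly bound in both lines, with 971 and 613 reads (0.88, 0.73 to 1.03). Cohesin was higher in DKO there, though under 2-fold. RAD21 had 334 and 207 reads (0.62, 0.37 to 0.88) and SMC1 313 and 166 (0.56, 0.29 to 0.84). No Pol2Ser2 region of 2p started below 20 kb.

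At the end of 1p the reads were fewer. Pol2Ser5 gave 126 DKO reads and 1 HCT116 read at chr1:10345-10706, an M of 5.30 with a wide interval of 3.78 to 11.60. H3K27Ac had 72 and 14 reads at chr1:10363-10657 (2.60, 1.84 to 3.62), and TotalRNAPol2 had 141 and 41 at chr1:10024-10678 (1.44, 0.96 to 2.01). CTCF had 19 and 66 reads at chr1:10393-10653 (-1.92, -2.79 to -1.22), among the 3 lowest CTCF values of all arm ends in regions of at least median density. The intervals of RAD21 (M of -0.75) and SMC1 (0.31) included 0.

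The end of 18p had more HCT116 reads of Pol2Ser5 and H3K27Ac than 1p, 2p and 5p, and some of its regions were called in both lines. Pol2Ser5 gave 388 DKO reads and 23 HCT116 reads at chr18:10525-11019 (3.23, 2.68 to 3.97), and 435 and 37 at chr18:11105-12435, called in both lines (2.72, 2.27 to 3.28). H3K27Ac had 264 and 78 reads at chr18:10579-10957 (1.94, 1.58 to 2.34), also called in both lines. TotalRNAPol2 had 280 and 20 reads at chr18:10526-10989 (3.43, 2.84 to 4.23). Another H3K27Ac region, at chr18:12882-13202, was under 2-fold, with 151 and 115 reads (0.59, 0.23 to 0.96). CTCF and cohesin had many reads in both lines. CTCF had 766 and 498 reads at chr18:11183-13449 (0.81, 0.64 to 0.97), RAD21 had 610 and 675 at chr18:11187-13168 (-0.05, -0.21 to 0.11), and SMC1 had 454 and 351 at chr18:11161-13670 (0.00, -0.20 to 0.21).

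The ends of 17p and 9p did not share the pattern of Pol2Ser5 and H3K27Ac. All 8 H3K27Ac regions of 17p below 20 kb were called in HCT116 only, with M between -0.89 and -0.21, and no Pol2Ser5 region started there. The 5 TotalRNAPol2 regions of 17p had M between 1.05 and 1.48, and the 4 CTCF regions between 0.69 and 1.51. The Pol2Ser2 regions of 17p below 20 kb were all called in DKO only, with M between 0.50 and 2.05. The highest, chr17:12295-12919, gave 57 DKO reads and 20 HCT116 reads (2.05, 1.34 to 2.91). The region nearest to the start of any chromosome, chr17:2067-2292, gave 18 DKO reads and 21 HCT116 reads (0.63, -0.38 to 1.60). On 9p only weak regions were present: TotalRNAPol2 had 32 and 11 reads (1.76, 0.82 to 2.98), and CTCF 17 and 16 (-0.19, -1.26 to 0.90).

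**Figure D2:**
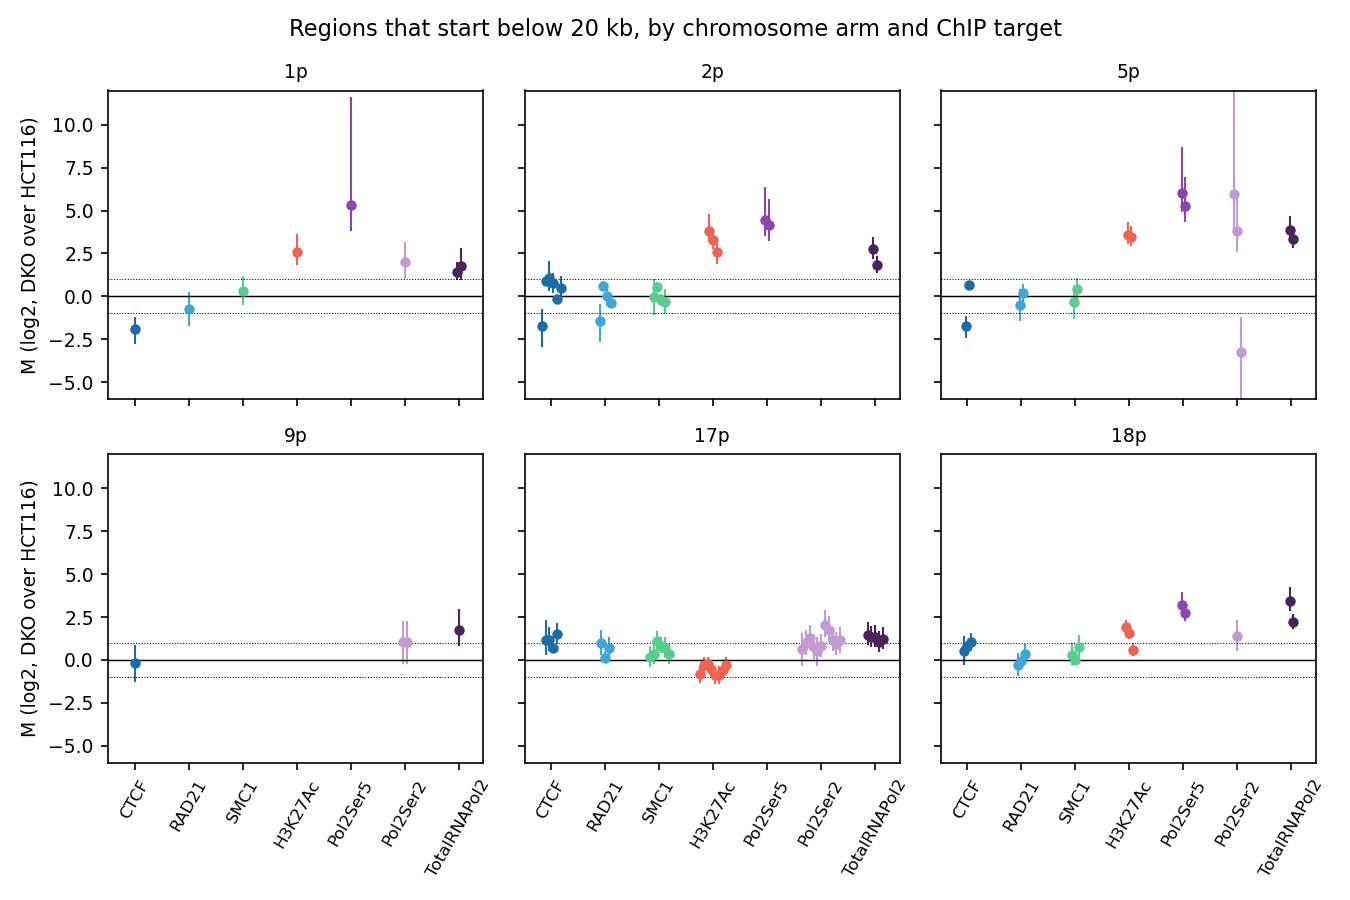
M (log2, DKO over HCT116) of every region that starts below 20 kb, by chromosome arm (panels) and ChIP target (horizontal axis), with exact 95% intervals from the reads; the dotted lines mark a 2-fold difference, and the intervals of the 2 Pol2Ser2 regions of 5p with 0 reads in 1 line run off the panel. On 1p, 2p, 5p and 18p the Pol2Ser5 points lie between 2.72 and 6.04, while the CTCF points of all 6 arms lie between -1.92 and 1.51.

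CTCF regions were also taken by what overlapped them. The outermost ones among these are the sites of 1p, 2p, 5p and 18p just described, so they are no further evidence on those ends. A total of 30 subtelomeric CTCF regions overlapped H3K27Ac, Pol2Ser5 and TotalRNAPol2 regions that were all past 2-fold in DKO. Of the 7 that started below 20 kb, 0 had CTCF past 2-fold in DKO, and their CTCF M ranged from -1.92 to 0.88. Of the 23 that started further in, on 10 chromosomes, 17 had CTCF past 2-fold in DKO, and none was below 0 (0.56 to 3.24). Without the split at 20 kb, 17 of the 30 (56.7%) were past 2-fold in DKO. At 2 to 4 Mb, 48 of 86 such CTCF regions (55.8%) were, so the unsplit shares were close. Of all CTCF regions, 30.6% near the arm ends and 33.9% at 2 to 4 Mb were past 2-fold in DKO. The 7 outermost regions came from only 4 arm ends, and no test of their difference from the other 23 was made.

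Beyond these outermost sites, polymerase was also higher in DKO over the first 100 kb as a group. This boundary was chosen after the values by distance had been seen. Below 100 kb the median M of Pol2Ser5 was 1.36 over 56 regions, against 0.29 over the 651 regions at 100 to 500 kb. TotalRNAPol2 had 1.33 over 76 regions against 0.76 over 849, and Pol2Ser2 had 1.16 over 107 regions against 0.51 over 1161. Without the regions below 20 kb the outer medians were still 1.14, 1.19 and 1.24, and without chromosome 20 the inner medians were 0.49, 0.91 and 0.66. Under a constant centring the outer and inner medians were 1.28 and 0.24 for Pol2Ser5, 1.00 and 0.49 for TotalRNAPol2 and 0.79 and 0.29 for Pol2Ser2.

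The arms were not uniform in this. Among arms with regions on both sides of 100 kb, the outer median was the higher one in 8 of 10 for Pol2Ser5, 9 of 10 for TotalRNAPol2 and 7 of 12 for Pol2Ser2. These arm counts include the regions below 20 kb, and several outer medians rest on very few regions. TotalRNAPol2 had 1 outer region on 7p and on 10p, 2 on 9p and 3 on 18p. Pol2Ser2 had 1 on each of 1p, 7p, 18p and 20p. The arm 2p was in each case among the exceptions: its median over the first 100 kb was below 0, although its outermost sites were high. That median M was -1.32 for Pol2Ser5 over 9 regions, -0.79 for TotalRNAPol2 over 12 and -0.11 for Pol2Ser2 over 11. CTCF (0.45 outside, 0.53 inside), RAD21 (0.14 and 0.06) and SMC1 (0.23 and 0.20) had nearly equal medians on both sides of 100 kb. H3K27Ac did too (-0.17 and -0.13), with 47 of its 121 outer regions on 17p, but 19.8% of its outer regions were past 2-fold in DKO against 9.29% of the inner ones. Of the 24 outer regions behind that share, 8 start below 20 kb and are among those described above. The outer median of H3K27Ac was the higher one on 8 of 12 arms.

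**Figure D3:**
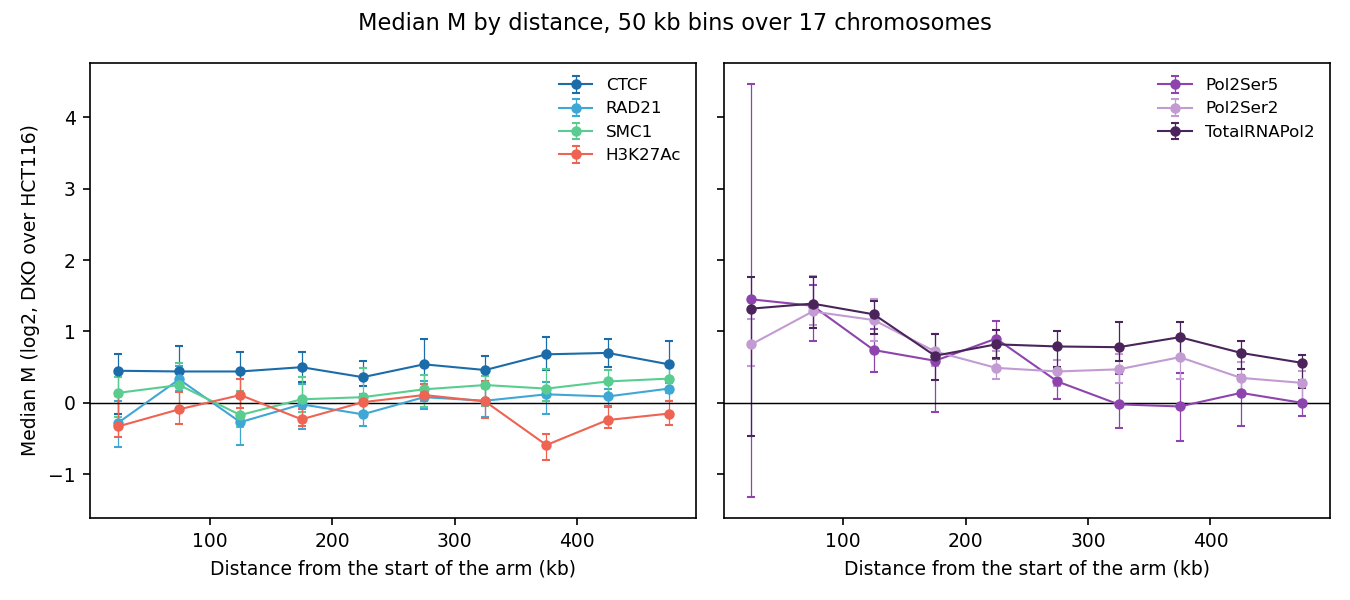
Median M (log2, DKO over HCT116) in 50 kb bins of distance from the start of the chromosome, over all 17 chromosomes, with 95% order-statistic intervals; CTCF, cohesin and H3K27Ac are on the left and the polymerase tables on the right. The polymerase medians are 0.82 to 1.45 in the outer pair of bins and 0.00 to 0.56 in the innermost bin, and the outermost Pol2Ser5 bin holds only 16 regions with an interval of -1.32 to 4.47. Without chromosome 20 (not drawn) the innermost medians are 0.40 for Pol2Ser5, 0.57 for Pol2Ser2 and 0.85 for TotalRNAPol2.

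Medians of single arm ends differed from each other by more than the pooled medians of arm ends and inner regions did. The inner regions differed between chromosomes too, so such a spread is not particular to the arm ends. Inner medians ran from -0.24 to 1.84 for CTCF, from -0.34 to 1.96 for H3K27Ac and from -0.39 to 0.69 for Pol2Ser5. Among arms with at least 10 regions, 20p had the lowest median in 4 tables. Pol2Ser5 had a median M of -0.93 there (-1.16 to -0.69), Pol2Ser2 of -0.78 (-0.89 to -0.63), TotalRNAPol2 of -0.85 (-0.98 to -0.67) and RAD21 of -0.46 (-0.64 to -0.03). The inner regions of chromosome 20 had medians of 0.37, 0.41, 0.56 and 0.03 in these tables. At the other end of the order stood 7p for the polymerase, with medians of 1.37 (0.91 to 1.72) for Pol2Ser2 and 1.38 (1.23 to 1.54) for TotalRNAPol2, and 6p for Pol2Ser5, with 1.23 over only 13 regions (-0.94 to 3.57).

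H3K27Ac had its highest median on 4p, 2.63 over 13 regions, with an interval of -0.09 to 4.96. Its lowest was on 8p, -0.97 over 12 regions (-1.25 to -0.19). CTCF was highest on 6p, at 0.77 (0.55 to 1.71), and lowest on 18p, at -0.09 (-0.47 to 0.47). RAD21 was highest on 10p, at 0.65 (-0.11 to 0.94). SMC1 ranged from -0.22 on 8p, over 10 regions, to 0.45 on 9p, over 12. Among arms with more SMC1 regions, the intervals of 20p (-0.20, -0.34 to -0.07) and 7p (0.42, 0.31 to 0.54) did not overlap.

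**Figure D4:**
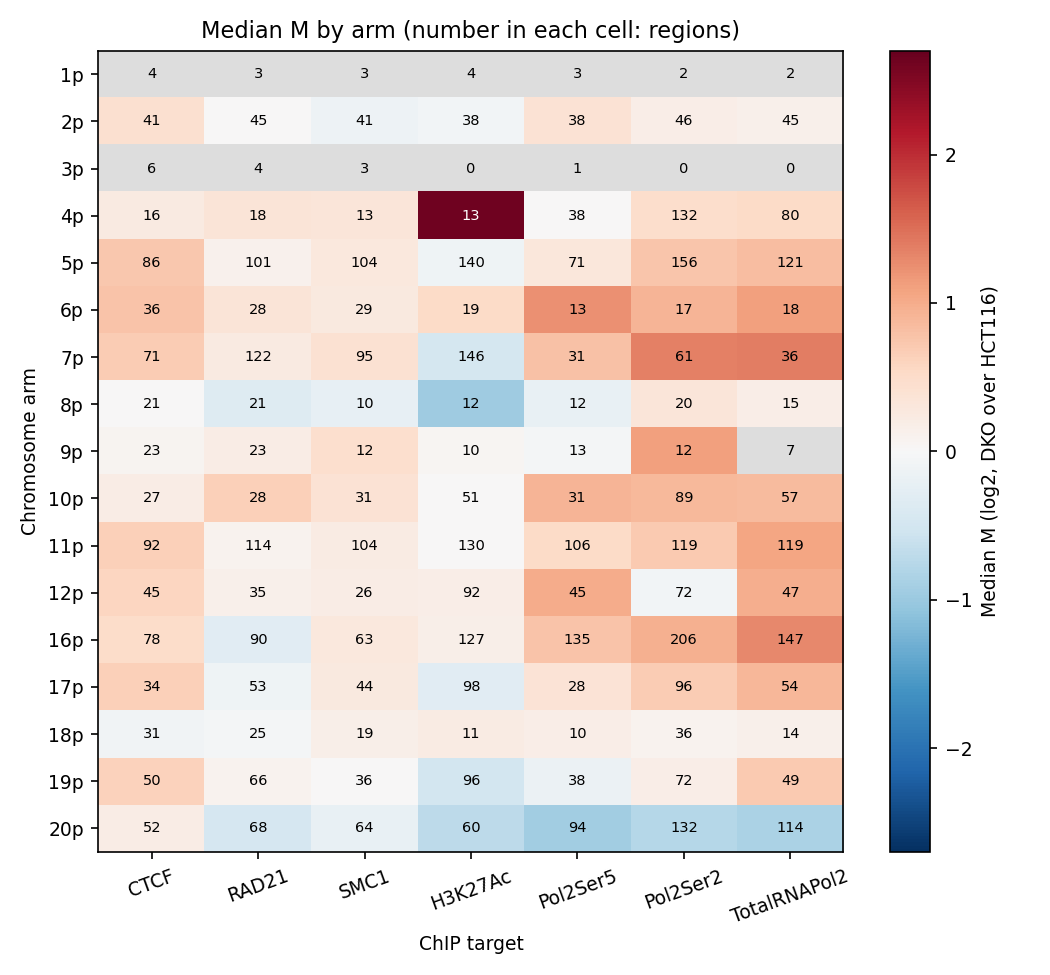
Median M (log2, DKO over HCT116; red higher in DKO, blue higher in HCT116) of the regions that start below 500 kb, by chromosome arm (rows) and ChIP target (columns), with the number of regions in each cell; cells with fewer than 10 regions are grey. The 20p row is blue for every target but CTCF, and H3K27Ac of 4p, at 2.63, is the darkest cell.

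On 4p, 3 H3K27Ac regions had the highest M of all arm ends among regions of at least median density. The first, chr4:123835-126057, gave 633 DKO reads and 7 HCT116 reads (6.56, 5.70 to 8.07). The second, chr4:206104-208043, had 336 and 6 (5.88, 4.96 to 7.55), and the third, chr4:330633-333338, had 365 and 13 (4.96, 4.27 to 5.99). All 3 were called in DKO only, and Pol2Ser5 was past 2-fold in DKO at each of them. Pol2Ser5 had 458 and 9 reads at the first (4.75, 3.96 to 6.04), 312 and 10 at the second (M of 4.07) and 338 and 13 at the third (3.83). RAD21 differed less, with M of 1.42, 0.89 and 1.12. The genes nearest to this end in RefSeq order (GRCh38.p14) include ZNF595, ZNF718, ZNF732, ZNF141 and ZNF721, which encode zinc finger proteins. No annotation of hg19 was used here, so regions were not assigned to genes.

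Among regions of at least median density, the highest M of CTCF and of both cohesin subunits lay at 1 place on 2p. At chr2:289169-290590 CTCF gave 281 DKO reads and 8 HCT116 reads (4.83, 4.00 to 6.22). RAD21 had 235 and 10 reads at chr2:289129-290849 (4.05, 3.28 to 5.26), and SMC1 had 122 and 20 at chr2:289286-290514 (2.24, 1.61 to 3.06). These were the highest values of all 3 proteins at any arm end, again among regions of at least median density. At this place TotalRNAPol2 had 83 and 12 reads (M of 2.77), H3K27Ac 51 and 27 (1.20) and Pol2Ser5 29 and 13 (0.39). Next to it, around chr2:288380-288782, 6 targets were past 2-fold in DKO, with CTCF at 44 and 2 reads (3.58, 2.20 to 7.22) and RAD21 at 45 and 3 (2.91, 1.65 to 5.62). SMC1 had 38 and 3 reads there (3.01, 1.73 to 5.72), an M above the 2.24 of the better covered region. Over all arm-end regions, whatever their density, the highest SMC1 M was 3.05, in a region elsewhere that starts below 100 kb. In RefSeq order the first genes of 2p are FAM110C, SH3YL1, ACP1 and ALKAL2.

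Across the arm ends, 18 loci on 13 chromosomes had overlapping regions of 4 or more targets, all of them past 2-fold in DKO. At 4 loci, all on chromosome 20, 4 or more targets overlapped and all were past 2-fold in HCT116. That is 2.90 and 0.645 loci per 1000 regions. Overlap was judged against 1 region per locus, taking for each target the region that overlapped it most. A locus was not counted if any of these was short of 2-fold, which leaves out the outermost sites of 1p, 2p, 5p and 18p. Counted loci can still hold such a target beside that 1 region: within chr17:404933-406897, RAD21 had an M of 0.20. At 2 to 4 Mb there were 61 and 7 such loci, or 1.86 and 0.214 per 1000 regions, so loci higher in DKO were the more common kind there too. Only 1 locus had all 7 targets, at chr16:459244-462481. There the DKO and HCT116 reads were 769 and 52 for H3K27Ac (4.03, 3.65 to 4.49), 508 and 28 for TotalRNAPol2 (3.61, 3.11 to 4.27), 384 and 15 for Pol2Ser5 (3.81, 3.16 to 4.75) and 210 and 21 for Pol2Ser2 (3.52, 2.93 to 4.31). CTCF had 39 and 5 reads (2.45, 1.33 to 4.38), RAD21 75 and 13 (1.99, 1.21 to 3.05) and SMC1 60 and 12 (1.93, 1.11 to 3.05). The 16p end also carries the alpha globin genes HBZ, HBM, HBA2, HBA1 and HBQ1 in RefSeq order, but which regions overlap them was not determined.

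On 18p, the second-highest CTCF value of the arm ends, among regions of at least median density, lay at chr18:72890-73559, with 107 and 4 reads (4.20, 3.11 to 6.41), beside RAD21 at 1.01 and SMC1 at 1.25. On 17p, TotalRNAPol2 gave 301 DKO reads and 8 HCT116 reads at chr17:404933-406897 (4.93, 4.10 to 6.32), and Pol2Ser5 had 341 and 9 at chr17:404979-407280 (4.34, 3.54 to 5.63). H3K27Ac differed less there, with 220 and 47 reads at chr17:405052-405417 (2.43, 1.99 to 2.94). On 16p, TotalRNAPol2 had 98 and 2 reads at chr16:324415-325565, an M of 5.41 (4.09 to 9.05) that was the highest of that target at any arm end. Pol2Ser5 was also higher in DKO there, with 89 and 6 reads (2.97, 2.00 to 4.66), beside an H3K27Ac M of 0.85 and a CTCF M of -0.02. On 10p, H3K27Ac had 415 and 30 reads at chr10:345487-347871 (3.96, 3.47 to 4.59), with Pol2Ser5 at 215 and 16 (2.91, 2.25 to 3.82). The mix of targets thus varied from locus to locus.

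**Figure D5:**
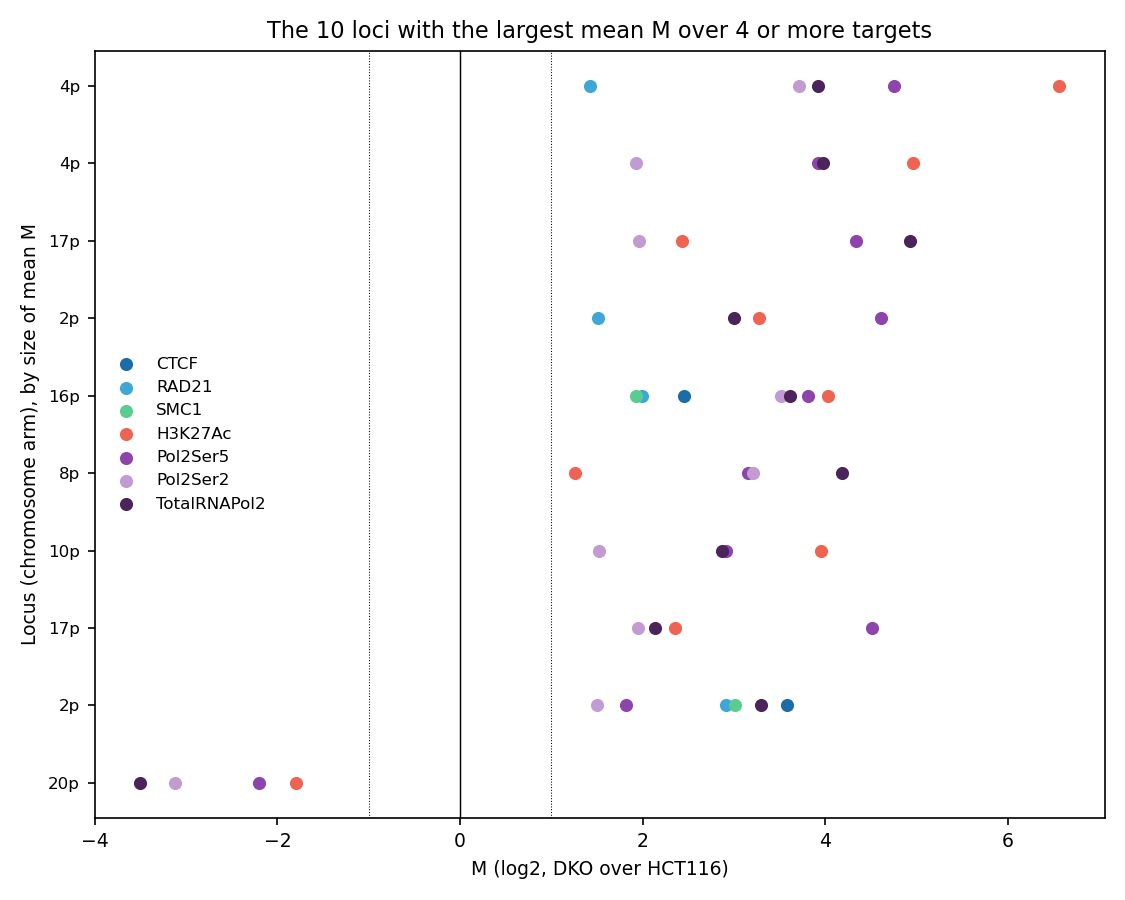
M (log2, DKO over HCT116) of each target at 10 loci, with 1 locus per line, named by chromosome arm. They have the largest mean M in size among loci where regions of 4 or more targets overlapped at 1 region and all of these were past 2-fold in 1 direction. Points are single regions coloured by ChIP target, dotted lines mark 2-fold, and the 20p locus at the bottom is the only one of the 10 below 0, with H3K27Ac at -1.80 and TotalRNAPol2 at -3.50.

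Many regions lower in DKO lay on 20p, between 330 and 410 kb from the start, a stretch picked after its values had been seen. Of the regions that start there, 27 of 31 for Pol2Ser5, 21 of 27 for TotalRNAPol2, 18 of 23 for Pol2Ser2 and 17 of 26 for H3K27Ac were past 2-fold in HCT116, and none of these tables had a region past 2-fold in DKO. Their median M was -2.01, -1.67, -1.81 and -1.44. Of all regions of the arm ends that were higher in HCT116, the stretch held 38.2% for TotalRNAPol2, 31.0% for Pol2Ser5, 22.2% for SMC1, 20.5% for Pol2Ser2, 16.8% for H3K27Ac, 9.89% for RAD21 and 7.41% for CTCF. Of all arm-end regions it held 27 of 925 for TotalRNAPol2, 31 of 707 for Pol2Ser5 and 31 of 697 for SMC1. It held 23 of 1268 for Pol2Ser2, 26 of 1047 for H3K27Ac, 30 of 844 for RAD21 and 17 of 713 for CTCF. Of CTCF, 2 of 17 regions were past 2-fold, with a median of 0.08. Cohesin lay between, with 9 of 30 RAD21 regions (median -0.62) and 4 of 31 SMC1 regions (median -0.13).

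Several single regions of 20p had many reads in HCT116. H3K27Ac formed a broad region at chr20:338790-367897 that was called in both lines. Its counting window of 2 kb held 189 reads in DKO and 1424 in HCT116 (-2.82, -3.06 to -2.61). For this and the other long regions, reads and M describe the counting window and not the full length. TotalRNAPol2 had 65 and 569 reads at chr20:341288-345316 (-3.84, -4.25 to -3.49), and Pol2Ser2 had 71 and 529 at chr20:361285-381952 (-3.12, -3.52 to -2.78). Pol2Ser5 had 37 and 333 at chr20:341331-344777 (-3.93, -4.49 to -3.47). Within the same H3K27Ac region CTCF had 283 and 374 reads at chr20:342919-344203 (-0.30, -0.52 to -0.07). It had 82 and 45 reads at chr20:360270-361037 (0.74, 0.21 to 1.31) and 93 and 69 at chr20:361310-361784 (0.35, -0.11 to 0.83). Further along, under low Pol2Ser5 at chr20:380676-383008, CTCF had 11 and 31 reads (-1.67, -2.89 to -0.72). Over all arm ends, the 10 CTCF regions that overlapped H3K27Ac, Pol2Ser5 and TotalRNAPol2 regions all past 2-fold in HCT116 had M from -1.98 to 0.74. The rest of 20p was also low for polymerase, with medians of -0.61 for Pol2Ser5, -0.68 for Pol2Ser2 and -0.67 for TotalRNAPol2. In RefSeq order 20p begins with beta-defensin genes, DEFB125 to DEFB132, followed by C20orf96, ZCCHC3, SOX12, NRSN2 and TRIB3.

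Outside 20p lay 77 of the 91 RAD21 regions higher in HCT116, 77 of 101 for H3K27Ac, 23 of 27 for CTCF, 12 of 18 for SMC1, 43 of 87 for Pol2Ser5, 39 of 88 for Pol2Ser2 and 11 of 55 for TotalRNAPol2. Of all arm-end regions 20p held 68 of 844 for RAD21, 60 of 1047 for H3K27Ac and 52 of 713 for CTCF. It held 64 of 697 for SMC1, 94 of 707 for Pol2Ser5, 132 of 1268 for Pol2Ser2 and 114 of 925 for TotalRNAPol2. Outside 20p, H3K27Ac gave 151 DKO reads and 941 HCT116 reads at chr17:499164-501513 (-2.52, -2.79 to -2.28). There Pol2Ser5 had an M of -2.39. The lowest CTCF value was at chr10:134019-134682, with 17 and 66 reads (-2.08, -3.00 to -1.36), beside RAD21 at -1.29 and SMC1 at -0.78. At chr5:350350-350884 CTCF had 48 and 160 reads (-1.78, -2.30 to -1.33), beside RAD21 at -1.64 and SMC1 at -1.22. At both of these CTCF sites M of RAD21 and SMC1 was below 0 as well.

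Among overlapping subtelomeric regions, M of some pairs of targets was strongly correlated. Spearman's rho of M across regions, given as a description, was 0.80 between Pol2Ser5 and TotalRNAPol2 (502 pairs), 0.74 between RAD21 and SMC1 (455 pairs), 0.74 between H3K27Ac and Pol2Ser5 (353 pairs) and 0.72 between CTCF and SMC1 (368 pairs). Between CTCF and the active marks it was 0.56 for TotalRNAPol2 (342 pairs), 0.52 for Pol2Ser5 (282 pairs) and 0.22 for H3K27Ac (403 pairs). In this order of 7 pairs, the values without chromosome 20 were 0.70, 0.73, 0.67, 0.74, 0.55, 0.50 and 0.16. At 2 to 4 Mb they were 0.61, 0.70, 0.39, 0.60, 0.49, 0.37 and 0.14 over all chromosomes. All pairs share libraries and neighbouring windows, and the difference between the arm ends and the inner regions was not tested.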

How the data were processed

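ChIP DNA of HCT116 and DKO was sequenced for 7 targets, 1 library per line and target, and samples were grouped by their titles. The 2 inputs were left out, since the tables hold no input values. Per the submitters' processing notes, BWA and the build hg19 were used for all targets and MACS2 for all but TotalRNAPol2, with no versions. Per the file headers, each deposited table lists 1 region per row with the line in which the authors called it, a normalized read density (a signal) per line, M and A (log2 values, the ratio and the mean of the densities), and a p-value that was not used. Each table was normalized separately by the authors, so levels were compared only within a table.

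Whole read counts were recovered from the deposited log2 values: 100% were whole within 0.05, with 1 read added per count. The counting window was 1 kb in the CTCF and cohesin tables and 2 kb elsewhere, and the centring line had a slope of 0.33 for Pol2Ser2, 0.32 for TotalRNAPol2 and -0.13 to 0.06 for the others. The recovery was tested on simulated data. Intervals are exact Clopper-Pearson (M), Wilson (shares) and order-statistic (medians), all at 95%. The first 2 cover counting error only, since PCR reads are not independent molecules. At a count of 0 only the bound of M is given. An overlap of 1 bp or more matched regions between tables.

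Named regions were the 3 highest and 3 lowest per target among those of at least median density, those that start below 20 kb, up to 10 loci shared by 4 or more targets, and the highest and lowest arms with 10 or more regions. The members and lists were chosen with earlier results of these data known. The 2 planned gene lists were not counted, because no annotation of hg19 was used here; gene names give RefSeq order on GRCh38.p14 only. Alternatives varied the boundary, the comparison regions, the centring, the regions kept and the chromosomes. Python 3.11.15, numpy 2.4.6, pandas 2.3.3, SciPy 1.17.1 and matplotlib 3.10.9 were used.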

Additional observations from a re-analysis of the deposited data

How the results depend on the processing

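Of 84 alternative values of the difference between subtelomeric and inner medians, 57 kept their direction and stayed within the error, 18 moved further and 9 reversed. Against all regions at or beyond 500 kb the difference was 0.26 for CTCF and 0.06 for SMC1 (both reversed), 0.37 for Pol2Ser5, 0.43 for Pol2Ser2 and 0.56 for TotalRNAPol2. For regions called in both lines it was -0.02 for CTCF, and it reversed to -0.16 for Pol2Ser5, -0.04 for Pol2Ser2 and -0.09 for TotalRNAPol2. Without chromosome 16 it reversed to -0.06, -0.02 and -0.01 in these 3 tables, and under a constant centring to -0.01 for Pol2Ser2. For starts below 250 kb it was -0.20 for CTCF, -0.20 for RAD21, -0.23 for SMC1, 0.52 for Pol2Ser5, 0.39 for Pol2Ser2 and 0.30 for TotalRNAPol2, and -0.19 for CTCF at or above the median density. With each chromosome weighted alike it was -0.16 for H3K27Ac, 0.32 for Pol2Ser5, 0.19 for Pol2Ser2 and 0.35 for TotalRNAPol2. Leaving out chromosome 20, chromosome 5 or regions below 20 kb was chosen after seeing the data; without chromosome 20 it was 0.25, 0.21 and 0.24 in the 3 polymerase tables, and the other omissions moved none beyond the error. The cause was not tested.

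Of 56 alternative counts past 2-fold, 32 moved by more than 1.5 times. With only regions called in both lines kept, CTCF had 24 higher in DKO and 16 higher in HCT116, RAD21 8 and 32, SMC1 2 and 3, H3K27Ac 26 and 22, Pol2Ser5 12 and 13, Pol2Ser2 28 and 21, and TotalRNAPol2 21 and 12. At or above the median density, which leaves fewer regions, CTCF had 112 and 17, RAD21 34 and 51, SMC1 43 and 8, and H3K27Ac 73 and 50, with 50 Pol2Ser5 regions higher in HCT116 and 256 Pol2Ser2 and 243 TotalRNAPol2 regions higher in DKO. Recentred on all regions, 46 CTCF, 35 SMC1 and 83 TotalRNAPol2 regions were higher in HCT116, and 52 RAD21 and 51 SMC1 regions higher in DKO. Under a constant centring 147 Pol2Ser2 and 86 TotalRNAPol2 regions were higher in HCT116. Below 250 kb the share called in DKO only was 47.1% for CTCF, 44.4% for SMC1, 28.2% for H3K27Ac, 66.5% for Pol2Ser5, 72.0% for Pol2Ser2 and 78.4% for TotalRNAPol2. At 1.5-fold, 53 loci were shared higher in DKO and 12 higher in HCT116. No paired analysis was possible because each line has 1 library per target. Depth limits M where a library had few reads, as with the 1 to 7 HCT116 reads of Pol2Ser5 at 1p, 2p and 5p.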
